A study of Mus musculus with 32 samples.

Results

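Malat1, Neat1, Gas5, Snhg1, Snhg3, Snhg5, Snhg6, Snhg8 and Snhg12 are long noncoding RNAs (lncRNAs) that either stay in the nucleus or carry small nucleolar RNAs (snoRNAs) in their introns. They were taken by name from 2 expression tables of mouse embryos, 1 of total RNA and 1 of polyA RNA, each with 46078 genes. Of the 9 genes, 8 were found in both tables, and Snhg1 itself was not analysed here, although the snoRNAs inside it were. Among these 8, all passed the filter on low values in total RNA (at least 1 FPKM in at least 2 libraries) and 7 passed it in polyA RNA, where Neat1 did not.

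The study set 1-cell and 2-cell embryos mutant for Dppa2 or Dppa4, genes of chromatin-binding proteins expressed in early embryos, against controls. In genotype names m is the maternal and z the zygotic allele. The 16 total RNA libraries held 8 groups of 2: Dppa2 m-z+ and Dppa2 m+z+ embryos of a B6/DBA mixed background, and Dppa4 m-z+ and Dppa4 m+z+ embryos of the B6 strain, each sampled as late 2-cell embryos 28 hours and as late 1-cell embryos 12 hours after fertilization. The 16 polyA libraries, which the descriptions give as single embryos, held 3 each of Dppa2 m-z- and Dppa2 m-z+ (mixed background) and of Dppa4 m-z- and Dppa4 m-z+ (B6) at the 2-cell stage, and 2 each of WT (B6) at the 2-cell and 1-cell stages. How the maternal alleles were deleted, and how many embryos made a total RNA library, is not given in the sources used here. Nothing in the labels says that replicates came from separate animals, so p-values measure only how far these libraries spread, and that spread may be technical.

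Malat1 is a component of nuclear speckles, the nuclear bodies rich in splicing factors, and Neat1 is the scaffold RNA of paraspeckles. The Snhg genes and Gas5 are snoRNA hosts: their introns are cut out and trimmed into snoRNAs, which guide chemical modification of ribosomal and other RNAs, while the spliced host RNA is exported and is often degraded by nonsense-mediated decay. Many hosts belong to the 5′ TOP class, whose transcripts start with a C followed by a run of pyrimidines, as ribosomal protein mRNAs do. Transcription of the embryo's own genome begins late in the 1-cell stage and rises sharply at the 2-cell stage, while RNA stored in the egg is broken down.

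The libraries went with their stage labels. Summed levels of 8 markers of the 2-cell stage were 309 to 409 FPKM in 2-cell and 4.1 to 16.2 FPKM in 1-cell total RNA libraries, and 7 maternal transcripts summed to 287 to 682 and 1650 to 2170 FPKM. The summed level of 10 markers of cumulus and granulosa cells, which surround the egg, was 2 to 6.31 FPKM in 2-cell and 4.7 to 10.1 FPKM in 1-cell total RNA libraries, and 10.8 to 22.5 and 10.8 to 18.5 FPKM in WT 2-cell and 1-cell polyA libraries. Their part in the stage changes was not tested. Most labels were borne out by the targeted gene. Dppa2 was at 9.38 and 9.52 FPKM in Dppa2 m-z+ against 32.3 and 32.7 FPKM in Dppa2 m+z+ 1-cell libraries. At the 2-cell stage it was at 44.8 and 59.2 FPKM in Dppa2 m-z+ against 49.7 and 53 FPKM in Dppa2 m+z+ libraries. Dppa4 was at most 0.149 FPKM in Dppa4 m-z- embryos against 184 and 201 FPKM in WT 2-cell embryos. Dppa2 RNA ran between 76.5 and 155 FPKM in the libraries labelled Dppa2 m-z- and between 63.3 and 92.4 FPKM in Dppa2 m-z+ polyA libraries, so the deposited values do not show its loss there. In total RNA, FPKM times length in single-exon genes fell on whole multiples of a step, from which a depth of 11.3 to 18.2 M fragments (M, mega) was estimated for the 2-cell and 19.8 to 26.6 M fragments for the 1-cell libraries. The 2-cell libraries were thus the shallower ones. In polyA RNA the steps were not clear and the depth is unknown.

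Start sites of 6 of the 8 genes were found in a RefSeq table (GRCm38.p6), with 2 starts for Gas5. The 50 bases centred on each start show how far the genes share the pyrimidine-rich start of the TOP class. The longest run of C and T that touches the stretch from 3 bases before to 12 bases after the start is in capitals. The first transcribed base is base 26 of each line.
Gas5 second start, chr1:161035141-161035190, plus strand: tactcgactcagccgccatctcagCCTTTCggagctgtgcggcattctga
Gas5 first start, chr1:161034576-161034625, plus strand: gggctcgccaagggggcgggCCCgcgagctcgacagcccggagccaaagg
Snhg12, chr4:132308653-132308702, plus strand: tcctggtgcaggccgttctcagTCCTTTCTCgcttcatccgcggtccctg
Snhg8, chr3:123508312-123508361, minus strand: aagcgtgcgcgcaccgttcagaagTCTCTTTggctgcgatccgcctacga
Snhg5, chr9:88522873-88522922, minus strand: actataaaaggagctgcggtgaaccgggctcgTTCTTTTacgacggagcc
Snhg3, chr4:132353662-132353711, minus strand: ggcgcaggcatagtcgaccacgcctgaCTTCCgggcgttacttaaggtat
Malat1, chr19:5802648-5802697, minus strand: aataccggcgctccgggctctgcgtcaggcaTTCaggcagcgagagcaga
The run was 9 bases long in Snhg12, 7 in Snhg8 and Snhg5, 6 at the second Gas5 start, 5 in Snhg3, and 3 in Malat1 and at the first Gas5 start. In Snhg12, Snhg8 and the second Gas5 start it spanned the annotated start itself. Of 32851 promoters, 7.6% had a run of at least 9 bases, 16.1% one of at least 7 and 24.1% one of at least 6, so none of these runs is rare, and a run of letters does not show how a transcript is regulated.

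At least 4 of these RNAs rose at the 2-cell against the 1-cell stage in each of the 4 genotypes of total RNA and in WT polyA RNA. In total RNA, 6 of 8 rose in Dppa2 m-z+, 4 in Dppa4 m-z+, 7 in Dppa2 m+z+ and 5 in Dppa4 m+z+ embryos, and none fell, by limma with Benjamini-Hochberg adjusted p under 0.05 over 15068 genes. Many genes changed at this step. The shares of all genes that rose were 28.8%, 25.3%, 31.7% and 24.9% in the same order of genotypes, and the shares that fell were 28.4%, 25%, 29.9% and 24.2%. The median change of the 8 was 1.87, 1.45, 2.67 and 1.6 on the log2(FPKM + 1) scale, beside medians of 0.02 to 0.06 over all genes. Neat1 passed the filter only through the Dppa2 m+z+ 2-cell libraries. Of the 7 genes without it, 6, 4, 6 and 5 rose. Malat1, Snhg5, Snhg8 and Snhg12 rose in all 4 genotypes, and Snhg6 in none. The 2 stages did not overlap for 7 of the 8 genes in each genotype, as for 76.6%, 80%, 79.6% and 78.2% of all genes, so with 2 libraries a group this was common. Rescaling every library to the same FPKM sum moved the all-gene medians by -0.2 to -0.36 and turned the split of genes to 3794 up and 5098 down in Dppa2 m-z+, 3146 and 5019 in Dppa4 m-z+, 3750 and 5802 in Dppa2 m+z+, and 3087 and 4834 in Dppa4 m+z+, without changing a call among the 8. Median-ratio scaling changed 1 call, that of Gas5 in Dppa4 m-z+, which then passed. In whole embryos, how many cells hold a transcript and how much each holds cannot be told apart, and FPKM are relative to all other RNA in the library.

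**Figure D1:**
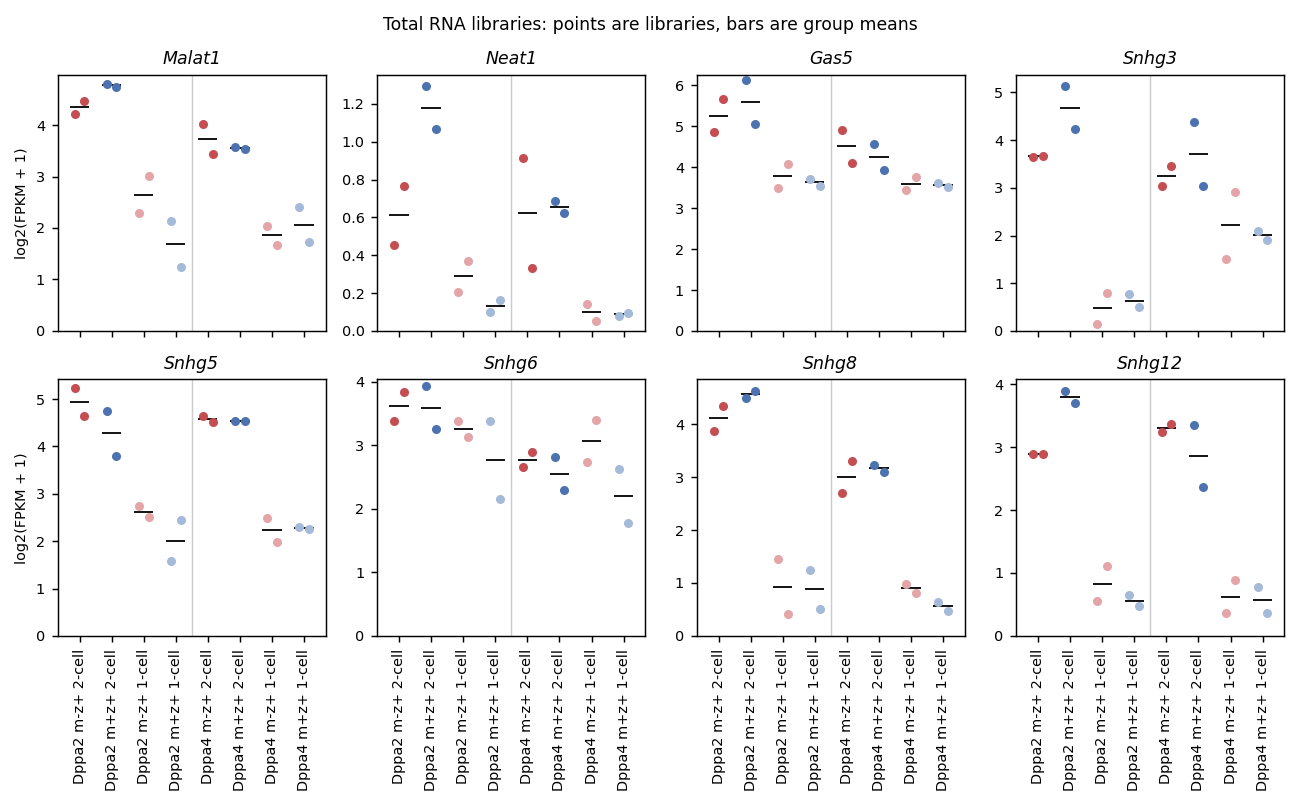
Levels of the 8 genes in total RNA, as log2(FPKM + 1) on the vertical axis of each panel, 1 point per library and a bar at the mean of each group of 2 (dark, 2-cell; pale, 1-cell; red, m-z+; blue, m+z+). The 2-cell points lie above the 1-cell points of the same genotype in every panel except that of Snhg6, where they overlap.

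Malat1 (ENSMUSG00000092341) is an unspliced lincRNA on chr19:5795690-5802672, minus strand. It was at 17.6 and 21.1 FPKM in Dppa2 m-z+ 2-cell libraries, against 3.87 and 7.06 FPKM in Dppa2 m-z+ 1-cell libraries, a rise of 1.7 ± 0.35 on the log2 scale (± is the limma standard error for every log2 change; adjusted p = 0.00113). In Dppa2 m+z+ it was at 26.9 and 25.6 FPKM in 2-cell and 3.41 and 1.35 FPKM in 1-cell libraries, a rise of 3.08 ± 0.35 (adjusted p = 9.04e-06). The 2-cell libraries of both genotypes lie clear of all the 1-cell libraries. The B6 embryos of the Dppa4 arm had less Malat1 at the 2-cell stage: 15.1 and 9.81 FPKM in Dppa4 m-z+ 2-cell libraries, against 3.12 and 2.18 FPKM at the 1-cell stage (1.87 ± 0.35, adjusted p = 0.00072). Dppa4 m+z+ had 11 and 10.6 FPKM in 2-cell against 4.29 and 2.3 FPKM in 1-cell libraries (1.5 ± 0.35, adjusted p = 0.00348).

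Neat1 (ENSMUSG00000092274), on the same strand nearby at chr19:5824708-5845478, was the lowest of the 8 in every 2-cell total RNA library. Its levels in Dppa2 m+z+ embryos were 1.45 and 1.09 FPKM in 2-cell and 0.0721 and 0.12 FPKM in 1-cell libraries, and it rose there by 1.05 ± 0.25 (adjusted p = 0.00281). These 2 Dppa2 m+z+ 2-cell libraries are the only ones of total RNA with at least 1 FPKM, so Neat1 entered the test through the group in which it was high, and its tests against that group give no support of their own. Dppa2 m-z+ had 0.372 and 0.7 FPKM in 2-cell against 0.155 and 0.293 FPKM in 1-cell libraries, which did not pass (0.32 ± 0.25, adjusted p = 0.285). In the Dppa4 arm the 2-cell values were 0.887 and 0.257 FPKM in m-z+ and 0.608 and 0.543 FPKM in m+z+, each above the 0.105 and 0.0372 FPKM and the 0.0572 and 0.0677 FPKM of the matching 1-cell libraries, with adjusted p = 0.0964 and 0.0758. With a pseudocount of 0.1 in place of 1, which compresses low values less, both passed, at 1.82 ± 0.64 in m-z+ (adjusted p = 0.0317) and 2.05 ± 0.64 in m+z+ (adjusted p = 0.0185). Dppa4 m-z+ also passed without 2-cell replicate 2 (0.82, adjusted p = 0.0324). These low FPKM belong to a long gene: the estimated depth puts 79 to 340 fragments on Neat1 in 2-cell and 18 to 120 in 1-cell libraries. That estimate takes the full exon length of 20771 bases, and the numbers would be lower if the reads lay on a shorter isoform. The deposited table gives 1 value per gene, so its short and long isoforms were not separated.

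Gas5 (ENSMUSG00000053332, chr1:161034422-161038539, plus strand) hosts 10 of the 29 annotated snoRNAs inside the host genes and was the most abundant of the 8 at the 1-cell stage, at 9.94 to 15.9 FPKM over the 8 libraries. It rose to 28.1 and 49.8 FPKM in Dppa2 m-z+ 2-cell libraries, against 10.4 and 15.9 FPKM at the 1-cell stage (1.47 ± 0.39, adjusted p = 0.00581). In Dppa2 m+z+ it stood at 69.2 and 32.3 FPKM in 2-cell against 12.2 and 10.7 FPKM in 1-cell libraries (1.96 ± 0.39, adjusted p = 0.000794). In the Dppa4 arm the difference did not pass. There Dppa4 m-z+ had 29.3 and 16.1 FPKM at the 2-cell against 9.94 and 12.5 FPKM at the 1-cell stage (0.91 ± 0.39, adjusted p = 0.0677), and Dppa4 m+z+ had 22.6 and 14.3 against 11.3 and 10.5 FPKM (0.68 ± 0.39, adjusted p = 0.165). Dppa4 m-z+ passed without 2-cell replicate 2 (1.32, adjusted p = 0.0365), with median-ratio scaling (1 ± 0.35, adjusted p = 0.0291) and with only the libraries compared in the fit (0.91 ± 0.3, adjusted p = 0.0446). The call in Dppa2 m-z+ was lost without 1-cell replicate 1, where the change was 1.18, or without 2-cell replicate 2, where it was 1.07. Zbtb37, which overlaps Gas5 on the other strand, moved otherwise: 13.9 FPKM on average in Dppa2 m-z+ 2-cell and 24.9 FPKM in 1-cell libraries, a fall by 0.85 (adjusted p = 0.023).

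Snhg3 (ENSMUSG00000085241, chr4:132348014-132353686, minus strand), host of the pair Snora73a and Snora73b, showed the widest contrast in the Dppa2 arm. It was at 11.6 and 11.8 FPKM in Dppa2 m-z+ 2-cell libraries, against 0.105 and 0.746 FPKM in 1-cell libraries (3.19 ± 0.49, adjusted p = 0.00012). In Dppa2 m+z+ it stood at 33.9 and 17.8 FPKM in 2-cell against 0.701 and 0.412 FPKM in 1-cell libraries (4.04 ± 0.49, adjusted p = 1.59e-05). In the Dppa4 arm the 1-cell libraries already held 1.85 to 6.52 FPKM, above every 1-cell library of the Dppa2 arm. Dppa4 m+z+ rose to 19.7 and 7.18 FPKM at the 2-cell stage, against 3.25 and 2.77 FPKM at the 1-cell stage (1.7 ± 0.49, adjusted p = 0.012), and the call was lost without 2-cell replicate 1 (1.03, adjusted p = 0.149) or 1-cell replicate 2 (adjusted p = 0.0638). Dppa4 m-z+ held 7.16 and 9.99 FPKM against 1.85 and 6.52 FPKM and did not pass (1.03 ± 0.49, adjusted p = 0.097), but did without 1-cell replicate 2 (1.73, adjusted p = 0.0213). Snhg3 shares its strand and part of its locus with Rcc1, which encodes the nucleotide exchange factor of Ran, so reads may be split between both genes. Rcc1 averaged 19.9 FPKM in Dppa2 m+z+ 2-cell and 10.9 FPKM in 1-cell libraries (0.81 ± 0.23, adjusted p = 0.00888), and 13.6 FPKM in 2-cell and 12.5 FPKM in 1-cell libraries of Dppa4 m+z+ (0.07 ± 0.23, adjusted p = 0.816).

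Snhg8 (ENSMUSG00000104960, chr3:123507552-123508404, minus strand), host of Snora24, and Snhg12 (ENSMUSG00000086290, chr4:132308623-132311024, plus strand), host of 5 annotated snoRNA entries, were low at the 1-cell stage, near the pseudocount of 1, and rose in all 4 genotypes. Snhg8 was at 13.7 and 19.5 FPKM in Dppa2 m-z+ 2-cell against 1.73 and 0.332 FPKM in 1-cell libraries (3.18 ± 0.35, adjusted p = 8.27e-06). In Dppa2 m+z+ it was at 21.5 and 23.9 FPKM against 1.36 and 0.427 FPKM (3.69 ± 0.35, adjusted p = 2.28e-06). The Dppa4 arm reached less than the Dppa2 arm at the 2-cell stage: 5.51 and 8.89 FPKM in Dppa4 m-z+ against 0.978 and 0.756 FPKM at the 1-cell stage (2.11 ± 0.35, adjusted p = 0.000325), and 8.44 and 7.54 against 0.569 and 0.384 FPKM in Dppa4 m+z+ (2.61 ± 0.35, adjusted p = 6.48e-05). Snhg12 stood at 6.39 FPKM in both Dppa2 m-z+ 2-cell libraries, against 0.473 and 1.15 FPKM at the 1-cell stage (2.05 ± 0.33, adjusted p = 0.000166). In Dppa2 m+z+ it had 13.9 and 12 FPKM against 0.562 and 0.386 FPKM (3.24 ± 0.33, adjusted p = 3.55e-06). No 1-cell library reached 2 FPKM of either gene. Dppa4 m-z+ had 8.48 and 9.3 FPKM of Snhg12 against 0.28 and 0.852 FPKM (2.68 ± 0.33, adjusted p = 2.6e-05), and Dppa4 m+z+ had 9.2 and 4.15 against 0.709 and 0.291 FPKM (2.29 ± 0.33, adjusted p = 0.000102).

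Snhg5 (ENSMUSG00000097195, chr9:88521050-88522929, minus strand) hosts Snord50a and Snord50b and changed by nearly the same amount in every genotype of total RNA. The rise was 2.32 in Dppa2 m-z+, 2.35 in Dppa4 m-z+, 2.26 in Dppa2 m+z+ and 2.26 in Dppa4 m+z+, each ± 0.34, with adjusted p between 8.09e-05 and 0.000145. Values in Dppa2 m-z+ were 36.5 and 24.1 FPKM in 2-cell and 5.64 and 4.69 FPKM in 1-cell libraries, and in Dppa2 m+z+ 25.8 and 12.9 against 2 and 4.42 FPKM. The Dppa4 arm was tighter, with 24 and 22 FPKM in m-z+ 2-cell and 22.3 and 22 FPKM in m+z+ 2-cell libraries, against 4.58 and 2.94 FPKM and 3.9 and 3.76 FPKM in the matching 1-cell libraries. The difference of stage change between Dppa2 m+z+ and Dppa4 m+z+ was 0 with a 95% interval of -1.04 to 1.04.

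Snhg6 (ENSMUSG00000098234, chr1:9941959-9944118, minus strand), host of Snord87, was the exception in total RNA. It was at 9.44 and 13.3 FPKM in Dppa2 m-z+ 2-cell against 9.45 and 7.77 FPKM in 1-cell libraries, and at 14.2 and 8.54 against 9.46 and 3.46 FPKM in Dppa2 m+z+. In the Dppa4 arm it was at 5.27 and 6.45 against 5.62 and 9.55 FPKM in m-z+, and at 5.99 and 3.88 against 5.17 and 2.44 FPKM in m+z+. The 2 stages overlapped in every genotype. Log2 differences were 0.35, -0.29, 0.82 and 0.34 in Dppa2 m-z+, Dppa4 m-z+, Dppa2 m+z+ and Dppa4 m+z+ (each ± 0.42, adjusted p = 0.491, 0.589, 0.108 and 0.522). Without Dppa2 m+z+ 1-cell replicate 1 the difference in that genotype was 1.43 and passed (adjusted p = 0.0179).

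**Figure D2:**
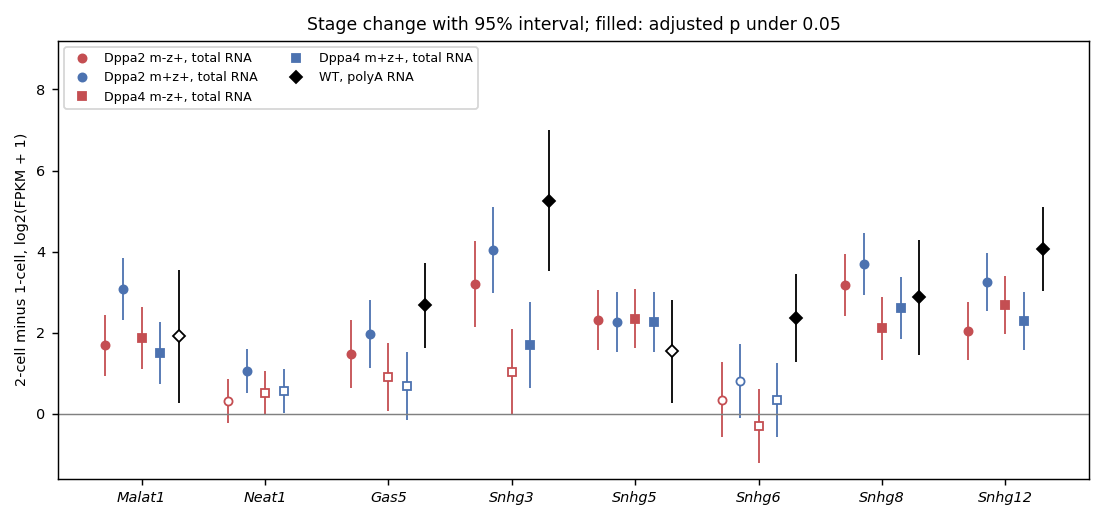
Difference between 2-cell and 1-cell embryos on the log2(FPKM + 1) scale for each gene and genotype, with its 95% interval. Filled symbols passed an adjusted p of 0.05, open symbols did not, and Neat1 has no polyA symbol because it was not tested there; all Snhg6 symbols are open except that of polyA RNA.

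In polyA RNA of WT embryos, 5 of the 7 genes tested rose and none fell, beside 17.4% of all 18506 genes that rose and 8.42% that fell. This library type is meant to read polyadenylated host RNA. The snoRNA entries inside the hosts also had values there, summing to 96.7 and 42.7 FPKM in WT 2-cell embryos. Spliced and unspliced host RNA are thus not told apart. Gas5 was at 172 and 332 FPKM in 2-cell against 22.8 and 58.1 FPKM in 1-cell embryos (2.68 ± 0.5, adjusted p = 0.000674). Snhg3 was at 48.1 and 60.8 against 0.735 and 0.2 FPKM (5.25 ± 0.82, adjusted p = 0.000124). Snhg12 was at 35.2 and 31.7 against 1.39 and 0.785 FPKM (4.06 ± 0.49, adjusted p = 8.62e-06). In these 3 genes the lowest 2-cell embryo had several times the level of the highest 1-cell embryo. Snhg8 was at 45.8 and 24.8 against 2.22 and 6 FPKM (2.87 ± 0.67, adjusted p = 0.00408), a call lost without 1-cell replicate 1 (adjusted p = 0.068) or 2-cell replicate 1 (adjusted p = 0.0538).

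Snhg6, which passed in no total RNA comparison, rose in polyA RNA, with 47.3 and 28.8 FPKM in 2-cell against 4.98 and 8.09 FPKM in 1-cell embryos (2.36 ± 0.52, adjusted p = 0.00255). Whether its change differed between the library types was not tested, as the 2 tables were normalized separately. Mcmdc2 overlaps an end of Snhg6 on the other strand. The polyA libraries were not stranded, so reads of both genes may be mixed there, and the effect of this on the change was not tested. Snhg5 was at 57.3 and 42.4 against 14.5 and 18.4 FPKM (1.54 ± 0.61, adjusted p = 0.0724), and Malat1 at 5.51 and 15.7 against 2.79 and 1.03 FPKM (1.91 ± 0.77, adjusted p = 0.0808). Neither passed, although their 2-cell embryos lay above their 1-cell embryos; the stages did not overlap in 66.4% of all genes. Snhg5 did pass when the 4 WT embryos were fitted alone (adjusted p = 0.0104). Neat1 was at 0.518 and 0.0366 FPKM in 2-cell embryos, against 0.00624 FPKM in 1 of the 1-cell embryos and a listed 0 in the other. Dividing libraries by median ratios moved the all-gene median of this comparison by -0.21 and gave 2805 genes up and 2355 down, with the same 5 calls among the 7 genes.

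**Figure D3:**
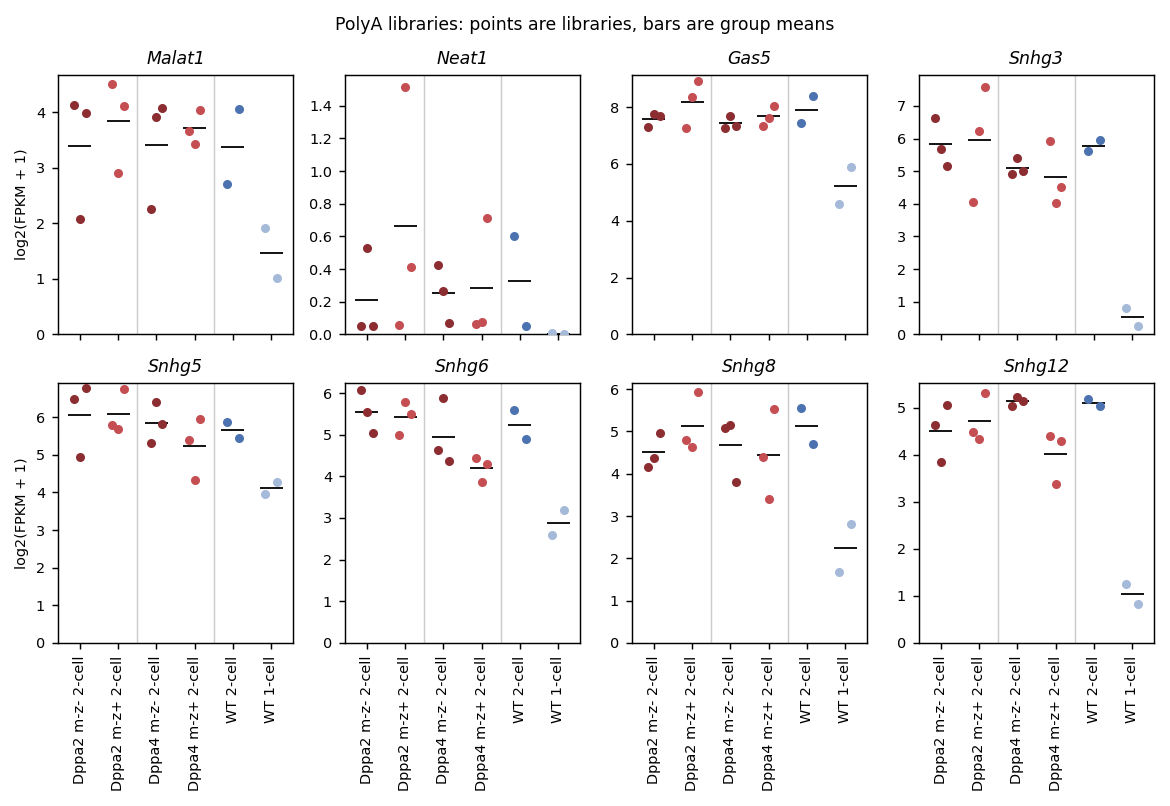
Levels of the 8 genes in polyA RNA of single embryos, as log2(FPKM + 1), 1 point per embryo and a bar at the group mean of 2 or 3 embryos. In every panel both WT 1-cell points lie below both WT 2-cell points, and the 2-cell genotypes overlap for most genes.

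Set beside total RNA, the polyA tables held the host genes at higher levels, and Malat1 at about the same level, at the 2-cell stage. Among B6 embryos, Gas5 averaged 252 FPKM in polyA RNA of WT 2-cell and 18.5 FPKM in total RNA of Dppa4 m+z+ 2-cell embryos, a ratio of 13.6. On the log2 scale that difference of 3.7 was larger than for 97.4% of the 13916 genes that passed the filter in both tables, whose median was 0.19. The ratio was 7.71 for Snhg6, 5.02 for Snhg12, 4.42 for Snhg8, 4.05 for Snhg3 and 2.25 for Snhg5. On the log2 scale these differences were larger than for 91.5%, 85.8%, 83.6%, 82.7% and 69.8% of the 13916 genes, in the same order. For Malat1 the ratio was 0.983, with 10.6 FPKM in polyA and 10.8 FPKM in total RNA, and for Neat1 it was 0.482. The same order of host genes above nuclear lncRNAs appeared at the 2-cell stage in Dppa4 m-z+ embryos, where Gas5 had a ratio of 9.09 and Malat1 one of 0.987, and in Dppa2 m-z+ embryos, with ratios of 8.27 for Gas5, 2.23 for Snhg8, 1.39 for Neat1 and 0.765 for Malat1. These are descriptions without a test, since the library types differ in kit, strandedness and normalization. Whether they also differ in number of embryos is not known, as that number is not given for total RNA. Total RNA reads also cover introns and snoRNAs, and polyA libraries had values at the snoRNA entries as well.

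At the 1-cell stage the host genes were less alike. In WT polyA beside Dppa4 m+z+ total RNA, the ratio was 8.62 for Snhg8 (4.11 and 0.476 FPKM), 4.3 for Snhg5 (16.5 and 3.83 FPKM) and 3.72 for Gas5 (40.5 and 10.9 FPKM). Snhg3 went the other way, with 0.467 FPKM in polyA and 3.01 FPKM in total RNA, a ratio of 0.155, lower on the log2 scale than for all but 13.6% of genes. Malat1 had 1.91 FPKM in polyA and 3.29 FPKM in total RNA. Within-library ranks show the same picture: Gas5 stood at the 95.7 and 98.1 percentile in WT 2-cell polyA libraries and at the 79.2 and 72.4 percentile in Dppa4 m+z+ 2-cell total RNA libraries, and Snhg3 at 24.7 and 14.5 in WT 1-cell polyA and 41.9 and 40.6 in Dppa4 m+z+ 1-cell total RNA libraries.

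**Figure D4:**
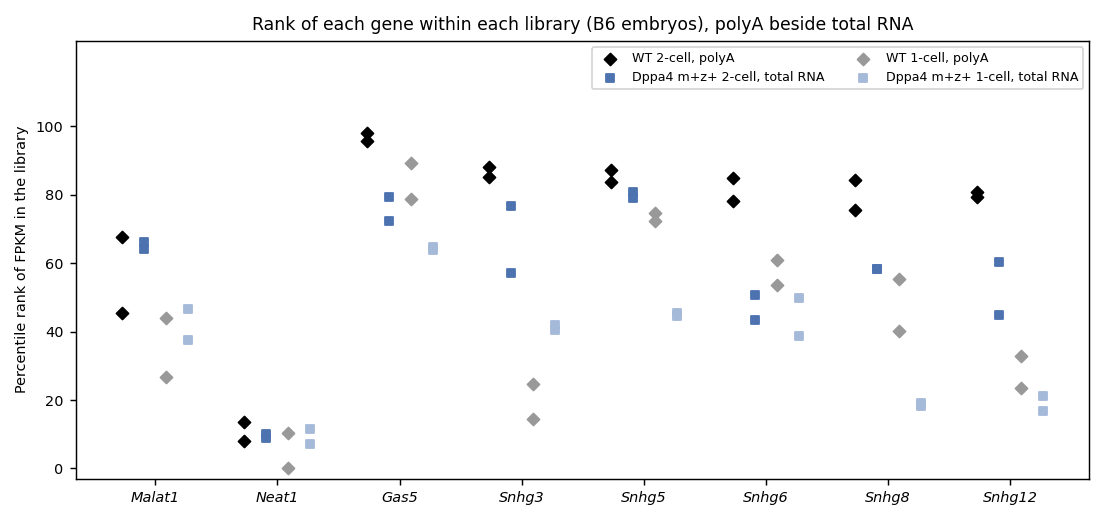
Percentile rank of each gene's FPKM within each library, among the 13916 genes that passed the filter in both tables, for B6 embryos without a maternal deletion, with 2 libraries per group. At the 2-cell stage the 6 host genes rank higher in polyA (black) than in total RNA (blue), most widely Snhg6, at 84.9 and 78.1 against 50.7 and 43.4, while the Malat1 and Neat1 ranks overlap.

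Inside the 7 host genes, Snhg1 included, lie 29 annotated snoRNA entries on the host strand. Gas5 holds 10, Snhg1 8, Snhg12 5, Snhg3 and Snhg5 2 each, and Snhg6 and Snhg8 1 each. They were taken by position within the gene, whether in an intron or not. In each of Snhg1, Snhg8 and Snhg12 the annotated exons of all transcripts cover the whole gene. Levels of Snhg8 and Snhg12 may thus include snoRNA reads. Annotated exons of Gas5 (3760 bases) and Snhg5 (1730 bases) cover most of these genes too, so their levels may also include such reads. Snord80 and Snora16a are each entered at 2 nearly identical positions, and both entries count in the box counts and sums. The sequences of the 29 entries in GENCODE M21 (GRCm38) were searched for the boxes of the 2 classes of snoRNA. Box C/D snoRNAs guide methylation of ribose and carry TGATGA (C box) near the 5′ and CTGA (D box) near the 3′ end, and box H/ACA snoRNAs guide pseudouridylation and carry ACA just before the 3′ end. Searching the first 15 bases for TGATGA, the last 15 for CTGA and the 3 bases that lie 3 from the 3′ end for ACA, a C box was found in 14, a D box in 22 and an ACA in 7 of the 29, beside 20.6%, 31.4% and 18.3% of 1507 snoRNA genes. Mir5117 held a C box, a D box and an ACA and counts under each, and Snora44 held none of them. Shown are the 5 entries that passed in at least 3 of the 5 stage comparisons, with these boxes in capitals, in DNA letters.
Snord22, chr19:8725866-8725991, plus strand: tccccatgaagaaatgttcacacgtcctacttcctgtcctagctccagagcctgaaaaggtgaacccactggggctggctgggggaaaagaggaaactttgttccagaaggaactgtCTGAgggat
Gm25894, chr19:8724251-8724325, plus strand: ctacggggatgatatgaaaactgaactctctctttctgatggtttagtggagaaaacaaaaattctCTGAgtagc
Gm22357, chr1:161036057-161036139, plus strand: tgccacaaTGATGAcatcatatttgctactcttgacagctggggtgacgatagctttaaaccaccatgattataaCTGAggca
Snora73b, chr4:132352322-132352526, minus strand: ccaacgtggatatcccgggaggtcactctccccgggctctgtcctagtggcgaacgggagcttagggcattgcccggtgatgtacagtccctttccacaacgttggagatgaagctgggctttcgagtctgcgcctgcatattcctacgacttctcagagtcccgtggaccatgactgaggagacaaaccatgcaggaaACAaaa
Snora61, chr4:132310240-132310369, plus strand: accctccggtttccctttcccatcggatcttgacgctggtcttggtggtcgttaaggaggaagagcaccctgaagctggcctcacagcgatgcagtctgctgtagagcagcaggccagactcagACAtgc
Snord22 and Gm25894 lie in Snhg1, Gm22357 in Gas5, Snora73b in Snhg3 and Snora61 in Snhg12, and the last pair are of the ACA class. Where no capitals stand near the 5′ end of a C/D snoRNA, the exact letters TGATGA were not in the first 15 bases.

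Of the hosted snoRNAs, 13 of the 20 entries tested in total RNA rose at the 2-cell stage in Dppa2 m+z+ embryos, beside 31.7% of all genes. The counts were 2 of 20 in Dppa2 m-z+, 7 of 20 in Dppa4 m-z+ and 6 of 20 in Dppa4 m+z+, beside 28.8%, 25.3% and 24.9% of all genes, and none fell in any of the 4 genotypes. The share was thus below that of all genes in Dppa2 m-z+ and near it in the Dppa4 arm. Of the 20 entries, 3 (Gm22489, Gm25789 and Snord99) would not have passed the filter without 1 of the m+z+ groups. Without these entries 12 of 17 rose in Dppa2 m+z+, 2 of 17 in Dppa2 m-z+, 7 of 17 in Dppa4 m-z+ and 6 of 17 in Dppa4 m+z+. The median changes were 0.55 in Dppa2 m-z+, 0.94 in Dppa4 m-z+, 1.67 in Dppa2 m+z+ and 1.06 in Dppa4 m+z+. The other 9 entries did not pass the filter. One library weighed on the lowest count: without Dppa2 m-z+ 2-cell replicate 1 it was 8 rather than 2, and it was 1 without either 1-cell replicate of that genotype. The count in Dppa4 m-z+ was 3 without 2-cell replicate 1 and 4 without 1-cell replicate 2, and that in Dppa4 m+z+ was 3 without 2-cell replicate 1. Summed over the 29 entries, snoRNAs reached 133 and 389 FPKM in Dppa2 m-z+ 2-cell against 159 and 114 FPKM in 1-cell libraries, and 422 and 247 against 67.9 and 72.5 FPKM in Dppa4 m-z+. The sums were 528 and 439 against 108 and 93.4 FPKM in Dppa2 m+z+, and 507 and 262 against 127 and 92.3 FPKM in Dppa4 m+z+. The stages overlap in Dppa2 m-z+ alone, and without Snord22 they do not overlap there either, at 62.4 and 160 against 45.8 and 40.3 FPKM. Gene-level values cannot tell mature snoRNA from unspliced host RNA, and FPKM of features shorter than a sequenced fragment are uncertain.

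Snord22, a box C/D snoRNA of Snhg1, made up more of these sums than any other entry. It was at 70.3 and 229 FPKM in Dppa2 m-z+ 2-cell against 113 and 74 FPKM in 1-cell libraries (0.47 ± 0.46, adjusted p = 0.399), and at 319 and 251 against 68 and 60.1 FPKM in Dppa2 m+z+ (2.13 ± 0.46, adjusted p = 0.00138). In the Dppa4 arm it was at 275 and 168 against 45.5 and 53.4 FPKM in m-z+ (2.1 ± 0.46, adjusted p = 0.00201), and at 360 and 183 against 83.7 and 64 FPKM in m+z+ (1.8 ± 0.46, adjusted p = 0.00574). PolyA libraries held at most 8.41 FPKM of it. Snora73b, whose yeast counterpart acts in cleavage of the ribosomal RNA precursor, was at 56.2 and 55.2 FPKM in Dppa2 m+z+ 2-cell against 6.74 and 6.66 FPKM in 1-cell libraries (2.88 ± 0.59, adjusted p = 0.00101). It was at 7.15 and 39.6 against 8.45 and 9.4 FPKM in Dppa2 m-z+, where the 2 replicates of the 2-cell stage stood far apart. Snora24, the only entry in Snhg8, averaged 17.1 FPKM in Dppa2 m+z+ 2-cell against 1.57 FPKM in 1-cell libraries (3.15 ± 0.66, adjusted p = 0.00121).

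In polyA RNA of WT embryos 1 of 19 hosted snoRNA entries tested rose, a lower share than the 17.4% of all genes. That was Gm22357 of Gas5, with 20.5 and 14.3 FPKM in 2-cell embryos, against 1.77 FPKM in 1 of the 1-cell embryos and a listed 0 in the other (3.44 ± 0.96, adjusted p = 0.0128). Without 1-cell replicate 1 or 2-cell replicate 1 the count was 0, and without 2-cell replicate 2 it was 4. The sums over 29 entries were 96.7 and 42.7 FPKM in WT 2-cell against 3.12 and 7.35 FPKM in WT 1-cell embryos.

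**Figure D5:**
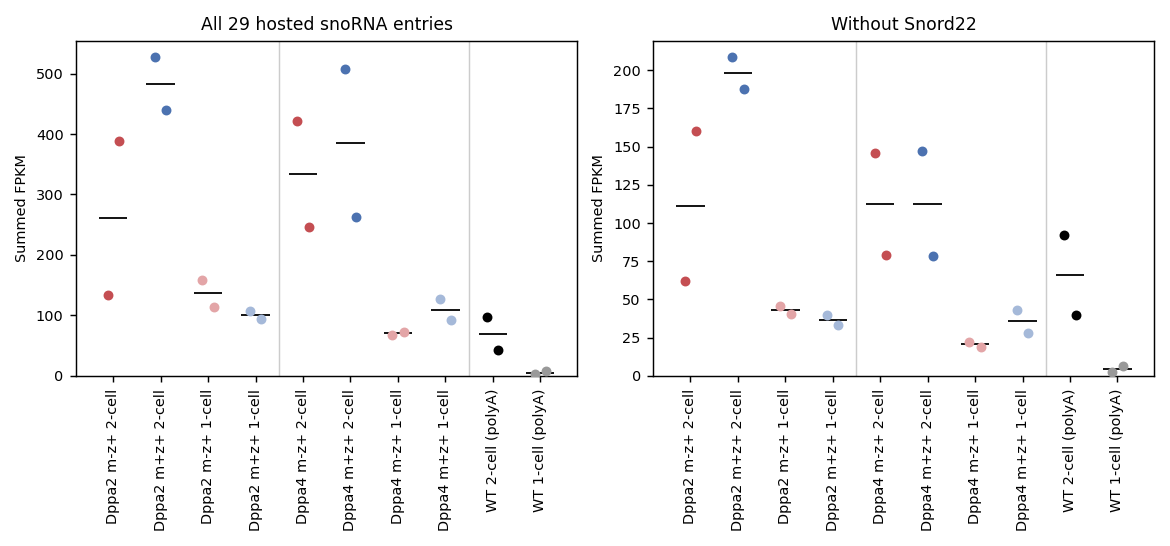
Summed FPKM of the 29 snoRNA entries inside the host genes in each library (left) and without Snord22 (right), on linear axes from 0, with a bar at each group mean. Total RNA of 2-cell embryos lies above that of 1-cell embryos in 3 of the 4 genotypes, and in Dppa2 m-z+ the 2 stages overlap, at 133 and 389 against 159 and 114 FPKM in the left panel.

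Maternal loss of Dppa2 or Dppa4 changed none of the 8 genes beyond the threshold. In total RNA, 0 of 8 passed for Dppa2 m-z+ against m+z+ at the 2-cell and at the 1-cell stage, where 0.186% and 0.0398% of all genes passed, and 0 of 8 for Dppa4 m-z+ against m+z+, where 0% and 0.00664% passed. At an unadjusted p under 0.05 the counts were 2 and 1 in the Dppa2 arm at the 2-cell and 1-cell stage and 0 at both stages in the Dppa4 arm, beside 12.8%, 3.05%, 2.67% and 1.27% of all genes. The 2 at the 2-cell stage were Snhg12, at 6.39 FPKM in both Dppa2 m-z+ against 13.9 and 12 FPKM in Dppa2 m+z+ libraries (-0.92, 95% interval -1.63 to -0.2, adjusted p = 0.264), and Neat1, at 0.372 and 0.7 against 1.45 and 1.09 FPKM (-0.57 ± 0.25, adjusted p = 0.363), which was tested only because of these Dppa2 m+z+ libraries. Malat1 had the lowest p at the 1-cell stage, with 3.87 and 7.06 FPKM in Dppa2 m-z+ against 3.41 and 1.35 FPKM in Dppa2 m+z+ libraries (0.96 ± 0.35, adjusted p = 1). The groups did not overlap for 5 of 8 genes at the 2-cell and 3 of 8 at the 1-cell stage of the Dppa2 arm, beside 31.4% and 35.4% of all genes. They did not overlap for 0 and 2 of 8 at these stages of the Dppa4 arm, beside 22.2% and 32.3%. The 5 were Malat1, Snhg3, Snhg8, Snhg12 and Neat1, and the separation of Neat1 there gives no support of its own. For Snhg5 at the 2-cell stage of the Dppa4 arm, with 24 and 22 FPKM in m-z+ and 22.3 and 22 FPKM in m+z+ libraries, the 95% interval of the log2 difference was -0.69 to 0.79.

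Of the hosted snoRNAs, 18 of 20 had a negative difference between Dppa2 m-z+ and Dppa2 m+z+ 2-cell libraries. Their median was -1.1 beside 0 over all genes, of which 48.6% had a positive difference. An unadjusted p under 0.05 was found for 9 of 20, beside 12.8% of all genes, but 0 passed in limma (lowest adjusted p = 0.227). Gm22489 and Snord99 would not have passed the filter without the Dppa2 m+z+ 2-cell libraries, so their differences here give no support of their own. Without these and Gm25789, which needed other m+z+ groups, the median over 17 entries was also -1.1 and 0 passed. Without Dppa2 m-z+ 2-cell replicate 1 the median was -0.54 and 16 of 20 were negative, and without Dppa2 m+z+ 2-cell replicate 1 it was -0.53. Without Dppa2 m-z+ 2-cell replicate 2 the lowest adjusted p was 0.0117, and without Dppa2 m+z+ 2-cell replicate 2 it was 0.0292. In Dppa4 m-z+ against Dppa4 m+z+ at the same stage 8 of 20 differences were positive, with a median of -0.11.

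Stage changes in mutants were also compared with those in controls. None of the 8 passed in the Dppa2 arm, where 0% of all genes did, or in the Dppa4 arm, where 0.00664% did. Malat1 changed by 1.7 in Dppa2 m-z+ and 3.08 in Dppa2 m+z+ embryos, a difference of -1.39 ± 0.5 (adjusted p = 0.452), and Snhg12 differed by -1.19 ± 0.47 (adjusted p = 0.494). Those 2 were the genes with an unadjusted p under 0.05 in the Dppa2 arm, and there were 0 in the Dppa4 arm, beside 8.62% and 1.79% of all genes.

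The 2 control groups, which differ in strain background and breeding arm, were set against each other in the same way. The stage change was larger in Dppa2 m+z+ than in Dppa4 m+z+ by 2.34 ± 0.69 for Snhg3 (adjusted p = 0.151), 1.58 ± 0.5 for Malat1 (adjusted p = 0.172) and 1.28 ± 0.55 for Gas5 (adjusted p = 0.292). These 3 of 8 had an unadjusted p under 0.05, beside 15.3% of all genes, and 0 passed, beside 0.139%. Snhg3 passed when Dppa4 m+z+ 2-cell replicate 1 was left out (3.01, adjusted p = 0.037). Arm, strain and library preparation cannot be told apart here.

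In polyA RNA of 2-cell embryos 0 of 7 genes passed in any of the 6 genotype comparisons. The share of all genes that passed was 0.0054% for labelled Dppa2 m-z- against m-z+, 0.0162% for Dppa4 m-z- against m-z+, 0.0648% and 0% for Dppa4 m-z- and m-z+ against WT, and 0.0973% and 0.113% for labelled Dppa2 m-z- and Dppa2 m-z+ against WT. At an unadjusted p under 0.05 the count was 1 of 7 in Dppa4 m-z- against m-z+, beside 7% of all genes, and 2 of 7 in Dppa4 m-z+ against WT, beside 6.65%. It was 0 of 7 for Dppa4 m-z- against WT, beside 10.7%, for labelled Dppa2 m-z- against m-z+, beside 7.65%, and for labelled Dppa2 m-z- and Dppa2 m-z+ against WT, beside 6.21% and 7.75%. The 1 was Snhg12, with 31.9, 36.3 and 34.3 FPKM in Dppa4 m-z- against 20.1, 9.37 and 18.6 FPKM in Dppa4 m-z+ embryos (1.11 ± 0.4, 95% interval 0.26 to 1.96, adjusted p = 0.641). The m-z- embryos lay above the m-z+ ones, the only 1 of the 7 genes whose groups did not overlap, beside 9.83% of all genes, and stood beside the WT embryos at 35.2 and 31.7 FPKM. The 2 were Snhg12 again (-1.08 ± 0.45, adjusted p = 0.718) and Snhg6, with 20.8, 13.5 and 18.7 FPKM in Dppa4 m-z+ against 47.3 and 28.8 FPKM in WT embryos (-1.05 ± 0.47, adjusted p = 0.734). Marker sums differed between these groups. Cumulus and granulosa markers summed to 28.8 to 43.4 FPKM in labelled Dppa2 m-z- against 8.65 to 14.3 FPKM in Dppa2 m-z+ embryos, to 12.3 to 27.8 FPKM in Dppa4 m-z- against 14.4 to 21.8 FPKM in Dppa4 m-z+ embryos, and to 10.8 to 22.5 FPKM in WT embryos. The 7 maternal transcripts summed to 310 to 446 FPKM in labelled Dppa2 m-z- against 420 to 665 FPKM in Dppa2 m-z+ embryos, to 812 to 1170 FPKM in Dppa4 m-z- against 550 to 829 FPKM in Dppa4 m-z+ embryos, and to 427 FPKM in both WT embryos. Their part in these comparisons was not tested. The 4 comparisons with WT share the same 2 WT embryos, and the Dppa2 groups also differ from WT in strain.

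Single embryos of 1 group differed widely. Snhg3 was at 15.6, 74 and 192 FPKM in the 3 Dppa2 m-z+ embryos, and Neat1 at 0.0391, 1.86 and 0.333 FPKM in the same embryos. Malat1 ran at 16.6, 3.21 and 14.9 FPKM in labelled Dppa2 m-z- embryos and at 3.77, 14.1 and 15.8 FPKM in Dppa4 m-z- embryos. Gas5 spread least among Dppa4 m-z- embryos, between 152 and 205 FPKM, and among labelled Dppa2 m-z- embryos, between 158 and 214 FPKM. It ran at 162, 197 and 260 FPKM in Dppa4 m-z+ embryos and spread most in Dppa2 m-z+ embryos, at 153, 326 and 486 FPKM.

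Genes that work with these RNAs were counted in the same stage comparisons, from lists chosen by function. Their counts stand beside 28.8% of all genes that rose and 28.4% that fell in Dppa2 m-z+, 25.3% and 25% in Dppa4 m-z+, 31.7% and 29.9% in Dppa2 m+z+, 24.9% and 24.2% in Dppa4 m+z+, and 17.4% and 8.42% in WT polyA. Of 9 other noncoding genes tested, mostly snoRNA hosts but also Terc and Rmrp, which host none, 5 rose and 0 fell in Dppa2 m-z+ total RNA, 4 and 0 in Dppa4 m-z+, 5 and 0 in both Dppa2 m+z+ and Dppa4 m+z+, and 4 and 0 of 7 in WT polyA. Their median changes in Dppa2 m+z+, Dppa4 m+z+ and WT polyA were 1.7, 1.19 and 2.56, beside 0.06, 0.04 and 0.23 over all genes tested in the same comparisons. Snhg20 averaged 16.9 ± 8.11 FPKM in Dppa2 m+z+ 2-cell and 0.521 ± 0.518 FPKM in 1-cell libraries (SD, n = 2 each), a change of 3.52 ± 0.43 (adjusted p = 1.69e-05 in limma). Snhg17 averaged 22.8 FPKM in polyA RNA of 2-cell against 0.145 FPKM in that of 1-cell WT embryos (4.38 ± 0.57, adjusted p = 1.87e-05). Protein-coding snoRNA hosts were mixed in total RNA: of 23 tested, 8 rose and 3 fell in Dppa2 m+z+ (median 0.23) and 5 and 5 in Dppa4 m+z+ (median -0.02), and 10 and 2 in WT polyA (median 0.7). Rpsa, a ribosomal protein gene, was at 55.3 ± 14 against 1.11 ± 0.847 FPKM in Dppa2 m+z+ (4.77 ± 0.49, adjusted p = 3.59e-06).

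Among 19 proteins of snoRNA particles and their assembly, 10 rose and 1 fell in Dppa2 m+z+ total RNA (median 0.63), 7 and 2 in Dppa4 m+z+ (median 0.38), and 13 and 0 in WT polyA (median 1.79). The shares of all genes that rose there were 31.7%, 24.9% and 17.4%. The largest changes in Dppa2 m+z+ were in Tgs1, which adds the trimethyl cap of several small RNAs (4.04 ± 0.35, adjusted p = 1.03e-06), Ruvbl1, an ATPase of the assembly complex (3.87 ± 0.37, adjusted p = 1.97e-06), and Znhit3, an assembly factor of C/D particles (3.45 ± 0.27, adjusted p = 5.16e-07). In WT polyA, Znhit3 averaged 1100 FPKM in 2-cell against 14.9 FPKM in 1-cell embryos. Genes of the bodies in which Neat1 and Malat1 reside moved both ways in total RNA, and more often up than down in WT polyA. Of 20 paraspeckle proteins, 8 rose and 6 fell in Dppa2 m+z+ (median 0.23), beside 31.7% and 29.9% of all genes, and 8 and 2 in WT polyA (median 0.65), with Rbmx up in Dppa2 m+z+ by 4.33 ± 0.29 (adjusted p = 1.45e-07) and Tardbp, the RNA-binding protein TDP-43, at 10.1 against 121 FPKM (-3.54 ± 0.33, adjusted p = 1.74e-06). Of 24 nuclear speckle proteins, 10 rose and 5 fell in Dppa2 m+z+ (median 0.4), and 12 and 2 in WT polyA (median 1.18). The splicing factor Srsf6 rose in Dppa2 m+z+ by 3.06 ± 0.4 (adjusted p = 3.1e-05).

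Of 19 nonsense-mediated decay factors, 7 rose and 4 fell in Dppa2 m+z+ total RNA (median 0.11), 7 and 5 in Dppa4 m+z+ (median -0.17), and 5 and 2 of 17 in WT polyA (median 0.51). The shares of all genes that rose and fell were 31.7% and 29.9% in Dppa2 m+z+, 24.9% and 24.2% in Dppa4 m+z+, and 17.4% and 8.42% in WT polyA. Smg5 rose by 2.83 ± 0.3 and Casc3, a core protein of the exon junction complex, by 2.76 ± 0.27 in Dppa2 m+z+, while Magohb, a paralogue of another core protein, was at 4.92 against 41.8 FPKM (-2.98 ± 0.38, adjusted p = 2.52e-05). The TOP mRNAs other than ribosomal proteins moved both ways: of 19, 5 rose and 8 fell in Dppa2 m+z+ (median 0.1), 4 and 7 in Dppa4 m+z+ (median -0.27), and 6 and 1 in WT polyA (median 0.75). Pabpc1, the cytoplasmic polyA-binding protein, rose by 5.03 ± 0.36 in Dppa2 m+z+ (adjusted p = 2.31e-07), while Naca, which escorts nascent chains at the ribosome, was at 56.7 against 187 FPKM (-1.71 ± 0.24, adjusted p = 6.16e-05). Of 16 other nuclear lncRNAs found, 9 passed the filter in total RNA and 10 in polyA RNA. In Dppa2 m+z+ total RNA 3 rose and 1 fell (median 0.49), and in WT polyA 1 rose and 0 fell (median 0.89). The 1 that fell in Dppa2 m+z+ total RNA was Pvt1, at 1.27 FPKM in 2-cell against 12.7 FPKM in 1-cell libraries (-2.75 ± 0.36, adjusted p = 2.93e-05).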

How the data were processed

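Transcript levels were measured in 32 libraries of mouse embryos, 16 of total RNA (SMARTer stranded kit) and 16 of polyA RNA (SMARTer Ultra Low Input with Nextera XT, not stranded). The deposited tables hold FPKM that the authors made. The submitters' processing notes name HISAT2 2.1.0, StringTie 1.3.3b and the mm10 build, without their order. Neither the annotation nor the strand setting is given in the sources used here. From the FPKM, log2(FPKM + 1) was computed (pseudocount 1), so fold changes of low genes are understated. Genes reaching 1 FPKM in 2 or more libraries were tested, 15068 in total RNA and 18506 in polyA RNA. Each table was fitted in limma 3.58.1 (R 4.3.3) with 16 libraries and 1 mean per group, with the trend and robust options and two-sided tests. P-values were adjusted by Benjamini and Hochberg over the genes tested, with a threshold of 0.05. Errors of FPKM are SD. Because the tables were normalized separately, polyA and total RNA were compared without a test.

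The closest match of Snhg3 is not reported here. Gene positions, exon lengths and snoRNA sequences came from GENCODE M21 (mm10), in which 45143 of the 46078 gene IDs were found with an exon length, and start sites from RefSeq. Depth in total RNA was estimated from genes with 1 transcript and 1 exon, where 59.3% to 70.5% of low values lay within 3% of a whole number of fragments. The test was checked on simulated data. The genes and lists were chosen with earlier results of these data known. Genes of each list were named by the largest absolute change among those past the threshold. Snora24 and the genes that overlap a member were named after their values were seen. Alternatives tried were other scalings, pseudocount, filter, limma options, a replicate block, smaller fits and leaving out each library.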

Additional observations from a re-analysis of the deposited data

How the results depend on the processing

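The counts of members that rose or fell kept within 1.5 times of their values in 435 of 436 alternatives. Most of these counts were 0 in the main fit and stayed 0, which says little about the others. A count of 4 that became 6 is within the 1.5 times. The exception to the 435 was the difference of stage changes between Dppa2 m+z+ and Dppa4 m+z+, where 0 to 1 members passed when 1 library was left out. Leaving out 1 library gave 5 to 6 members that rose in Dppa2 m-z+, 4 to 6 in Dppa4 m-z+, 6 to 8 in Dppa2 m+z+, 4 to 5 in Dppa4 m+z+ and 4 to 5 in WT polyA. Among 1640 alternative log2 changes of single members, 1622 stayed on their side of the threshold, 12 gained and 6 lost a call, and 0 reversed. The hosted snoRNA counts, whose alternatives were chosen after seeing the data, ranged from 1 to 8 in Dppa2 m-z+, 3 to 7 in Dppa4 m-z+, 9 to 14 in Dppa2 m+z+, 3 to 6 in Dppa4 m+z+ and 0 to 4 in WT polyA. Without the filter the count was 1 in Dppa2 m-z+. In WT polyA it was 2 with a pseudocount of 0.1, 2 without the filter and 3 with only the libraries compared. The last setting called 7263 of 13668 genes, against 4784 of 18506, and 2743 were called without WT 1-cell replicate 1. Over all alternatives the genes called ranged from 0 to 448 (main count 28, with 448 without Dppa2 m-z+ 2-cell replicate 2) in Dppa2 m-z+ against m+z+ at the 2-cell stage and from 0 to 674 (main count 21) in the difference between both control groups, with 674 without Dppa4 m+z+ 2-cell replicate 1. In the other 11 genotype comparisons the main counts were 0 to 21, the lowest 0 to 2 and the highest 5 to 150. The causes were not tested.

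Replicate numbers did not pair the libraries: same-numbered libraries of different groups had deviations that correlated at -0.14 to 0.14 across genes in the total RNA table, and at -0.18 to 0.12 in the polyA table. With the replicate block Snhg5 passed in WT polyA (1.54 ± 0.54, adjusted p = 0.049), and the block changed no other call among the members. Percentile differences between polyA and total RNA moved by more than their replicate SD in 9 cases. Ranked among all genes above 0 FPKM, the differences in Dppa4 m-z+ 2-cell embryos were -16 points for Neat1 and 12.3 for Snhg6. Between WT and Dppa4 m+z+ they were -21.8 for Neat1, 14.4 for Gas5, 2.7 for Snhg5, 22.4 for Snhg6 and 13.4 for Snhg8 at the 2-cell and 21.8 for Snhg5 at the 1-cell stage. Among protein-coding genes alone the last was 31.5. In polyA RNA the depth is unknown, which limits what can be said of Neat1.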

Other observations

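Across the 16 total RNA libraries, which share 2 stages and so correlate for any gene that changes between them, the genes whose log2(FPKM + 1) followed a member most closely were named as a description. Snhg8 was most like Sh3bp5l and Snhg12 most like F11r (Pearson r of 0.987 each). Snhg5 followed Gm21542 at 0.98, Malat1 followed Cyc1, a subunit of respiratory complex III, at 0.972, and Gas5 followed Ccnd2, a D-type cyclin, at 0.97. Neat1 was most like A630035G10Rik, at 0.965. Snhg6 had the weakest match, Bcas3 at 0.806. Among the members Snhg8 and Snhg12 were closest (0.928), and Snhg5 and Snhg6 least alike (0.249).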
